A study of Homo sapiens with 38 samples.

Results

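The genes described here encode 48 nuclear-encoded subunits of complexes I to IV of the mitochondrial respiratory chain, chosen by name. Each gene was represented by the probe set with the highest mean log2 signal among those that name it alone. That rule gave 42 of the 48 genes a measurement, among 18063 genes measured in all. They were 23 of 26 subunits of complex I, 3 of 4 of complex II, 5 of 7 of complex III and 11 of 11 of complex IV. The other 6, NDUFS8, NDUFC2, NDUFS5, SDHB, UQCRFS1 and UQCRH, had no probe set of their own and were not analysed here. All 42 measured genes passed the filter on low signals.

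Signals came from 38 one-colour Affymetrix arrays of 2 human melanoma lines, 20 of 16R6-4 and 18 of A375. 16R6-4, called resistant here, is a single clone derived from A375 by acquired resistance to GSK2118436. A375, called parental here, is an established line with an activating mutation of BRAF. Cells had been exposed for 24 h to 0.1 or 1 µM GSK436 (GSK2118436, dabrafenib, an inhibitor of RAF kinases), to 10 or 30 nM GSK212 (GSK1120212, trametinib, an inhibitor of MEK), to 10 nM GSK212 combined with 0.1 or 1 µM GSK436, or to DMSO, the vehicle. Resistant cells gave 3 arrays for each drug treatment and 2 for DMSO. Parental cells gave 2 arrays for either dose of GSK436 alone and for 30 nM GSK212, and 3 each for 10 nM GSK212, both combinations and DMSO. Nothing in the labels says that replicate arrays stand for separate cultures, so a p here reflects the spread among these samples, which may be technical.

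The respiratory chain passes electrons from NADH (complex I) and succinate (complex II) through ubiquinone to complex III, then by cytochrome c to complex IV, which reduces oxygen. Complexes I, III and IV pump protons across the inner membrane, and ATP synthase uses the gradient. Most subunits are encoded in the nucleus and imported, and a few core subunits of complexes I, III and IV are encoded in mitochondrial DNA. In melanoma cells, MITF and the coactivator PGC-1α (PPARGC1A) are known to support oxidative metabolism, and BRAF signalling is known to restrain them.

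RNA quality and scaling of the arrays bear on every value below. The actin control probe sets at the 3′ and 5′ ends gave a signal ratio, higher where RNA is shorter, that ran from 3.72 to 45.0 and exceeded 20 on 15 arrays. Its group mean was 10.9 to 19.9 in resistant cells with GSK436 alone against 5.47 with DMSO, and 27.9 to 37.3 in parental cells with GSK436 alone against 7.76 with DMSO. The authors' scaling set every array to the same trimmed mean, while the array medians ran from 21.6 to 52.4. As deposited, the median change over all genes was positive in every comparison of a drug with DMSO within a line, up to 0.39 on the log2 scale, and after centring each array on its median it was negative in every one, down to -0.43. Changes are given as deposited, as log2 fold changes ± standard error. The median over all genes stands beside them in most comparisons. For line differences and for GSK212 alone in resistant cells, counts of members above and below that median are given instead. Calls required an adjusted p under 0.05 in limma, over all genes and with no minimum fold. Shares of all genes called are given as deposited and for 1 stricter filter. Counts after centring, under other settings or without an array have no such share beside them. The melanocyte genes MITF and CSPG4 exceeded the low-signal limit of 34.88 on all 38 arrays. S100B exceeded it on 13, and TYR and S100A1 on 10 each. MIA exceeded it on 21, with medians of 13.5 in resistant and 1459 in parental cells with DMSO. SOX10, a melanocyte lineage factor, had a median of 2.42 in resistant and 560.1 in parental cells with DMSO, and the pigment genes MLANA and PMEL exceeded the limit on 3 and 5 arrays. Genes of other cell types were also read over the limit. Of the leukocyte genes, PTPRC exceeded it on 11 arrays, CD3E on 15, CD14 on 1, LYZ on 12 and CSF1R on 16, the highest signal being 141.1. Of the fibroblast genes, COL1A1 exceeded it on 29 arrays, LUM on 28, PDGFRB on 22, DCN on 18 and COL1A2 on 11, with signals up to 504 and 313 for COL1A1 and LUM. The epithelial gene KRT8 exceeded it on all 38 arrays, with medians of 599.9 in resistant and 173.2 in parental cells with DMSO. The epithelial genes EPCAM and CDH1 did so on 6 and 2 arrays, and the muscle genes MYH7, ACTA1 and CKM on 8, 1 and 0. In parental cells with 1 µM GSK436, 2 of 5 fibroblast genes (LUM, 2.77, and COL1A1, 1.65), 2 of 4 leukocyte genes and 1 of 3 epithelial genes tested were called higher, and their part in the results below was not tested.

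The promoters shown first belong to members called higher or lower after 1 µM GSK436 in parental cells. Only members with 1 promoter entry were considered. Among those, they are the 3 called higher with the lowest adjusted p, UQCRQ, COX5B and NDUFA2, and the 3 called lower, NDUFB4, NDUFV2 and NDUFS4. Each run is the 170 bases before the transcription start of RefSeq on GRCh38.p14, read in the direction of the gene, and capitals mark matches to the motifs searched. UQCRQ lies at chr5:132866472-132866641 on the + strand, COX5B at chr2:97645892-97646061 on the + strand, NDUFA2 at chr5:140647631-140647800 on the - strand, NDUFB4 at chr3:120596166-120596335 on the + strand, NDUFV2 at chr18:9102529-9102698 on the + strand, and NDUFS4 at chr5:53560469-53560638 on the + strand.
UQCRQ: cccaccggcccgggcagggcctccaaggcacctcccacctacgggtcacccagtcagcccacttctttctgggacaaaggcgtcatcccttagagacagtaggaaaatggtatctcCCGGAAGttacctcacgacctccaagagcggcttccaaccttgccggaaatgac
COX5B: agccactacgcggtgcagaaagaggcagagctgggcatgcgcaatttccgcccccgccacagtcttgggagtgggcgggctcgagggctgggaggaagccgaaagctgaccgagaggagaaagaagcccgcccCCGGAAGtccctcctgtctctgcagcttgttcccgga
NDUFA2: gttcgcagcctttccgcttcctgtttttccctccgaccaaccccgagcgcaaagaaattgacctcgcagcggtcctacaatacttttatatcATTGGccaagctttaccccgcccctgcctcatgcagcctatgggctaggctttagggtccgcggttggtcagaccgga
NDUFB4: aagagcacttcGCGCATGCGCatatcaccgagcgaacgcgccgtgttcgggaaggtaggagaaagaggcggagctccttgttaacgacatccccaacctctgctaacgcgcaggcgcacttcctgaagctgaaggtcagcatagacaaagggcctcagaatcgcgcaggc
NDUFV2: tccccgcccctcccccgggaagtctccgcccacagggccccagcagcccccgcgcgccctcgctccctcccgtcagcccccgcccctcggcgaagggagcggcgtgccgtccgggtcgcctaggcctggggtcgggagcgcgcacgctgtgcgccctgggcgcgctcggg
NDUFS4: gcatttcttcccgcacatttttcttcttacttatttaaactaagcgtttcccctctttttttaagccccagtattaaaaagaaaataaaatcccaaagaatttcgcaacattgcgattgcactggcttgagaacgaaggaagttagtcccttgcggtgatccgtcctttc

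RefSeq's promoter table, from 250 bases before to 50 after the start, held 41 of the 48 genes among 27305. Motifs were searched on both strands, each on its own, so a promoter may hold several. The ETS letters CCGGAAG, bound by factors such as GABP, stood in 13 of the 41 promoters (31.7%) and in 12.2% of all promoters. The YY1 letters AAGATGGC stood in 6 (14.6%, against 3.52% of all) and the NRF1 letters, those in capitals in NDUFB4 above, in 3 (7.32%, against 1.52%). CCAAT, the NF-Y letters, stood in 11 (26.8%, against 39.7%), and the E-box CACGTG in 0 (against 8.77%). Among the promoters of the 20 members called higher with 1 µM GSK436 in parental cells, 7 held ETS letters, 7 CCAAT, 4 YY1 letters and 0 NRF1 letters. Of the 3 called lower, NDUFB4 held the NRF1 letters, 1 of the 3 held YY1 letters, and 0 held ETS letters or CCAAT. Of the 14 not called there, 4 held ETS letters, 2 CCAAT, 0 YY1 letters and 2 NRF1 letters. These matches are descriptions of letters and were not tested.

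The subunits did not all change alike in parental cells given 1 µM GSK436. Of 42 members, 20 (47.6%) were called higher and 3 (7.14%) lower than with DMSO, where 16.2% of all genes were called higher and 13% lower, and after centring the arrays the counts were 0 higher and 9 lower. The median member change was 0.34, beside 0.39 over all genes, and single members ran from -1.23 to 1.08. The members differed from each other by a range of 2.31. Over all genes the change had a standard deviation of 1.08 and quartiles of -0.35 and 1.08, so such scatter was not particular to the members. Centring shifts all genes of an array alike, so it cannot alter the range of the members and does not test it. With the actin ratio as a covariate the range was 1.53, from NDUFB4 to NDUFV1.

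Complex I split in both directions. Of its 23 measured subunits 9 rose, 3 fell and 11 did not pass the test. NDUFS6, a zinc-binding accessory subunit, had signals of 5544 and 7659 with 1 µM GSK436, against 2695, 2553 and 4247 with DMSO. Both treated arrays lay above all 3 DMSO arrays, and the third DMSO array was the nearest to them. Of all genes, 36.4% lay wholly above and 19.9% wholly below DMSO in this comparison. The change was 1.08 ± 0.25 (limma, adjusted p = 0.00129). NDUFV1, which binds NADH and the flavin cofactor, had signals of 2459.97 and 2936 with the drug, against 1034, 1034 and 1997 with DMSO, and rose by 1.06 ± 0.26 (limma, adjusted p = 0.00246). NDUFB8, an accessory subunit of the membrane arm, rose by 0.94 ± 0.20 (limma, adjusted p = 0.000455).

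NDUFV2, the iron-sulfur partner of NDUFV1 in the NADH-oxidising module, went the other way. Its signals were 873 and 577 with 1 µM GSK436, against 1538, 1639 and 986 with DMSO. The groups did not overlap, but the third DMSO array stood close to the treated arrays. NDUFV2 changed by -0.93 ± 0.24 (limma, adjusted p = 0.00396). NDUFB4, an accessory subunit of the membrane arm, had signals of 2392 and 1176 against 3519.6, 3661 and 2573, a change of -0.94 ± 0.26 (limma, adjusted p = 0.00713). NDUFS4, an accessory subunit needed to attach the NADH-oxidising module and a known site of Leigh syndrome mutations, had signals of 678 and 444 against 1132, 1170.4 and 771, a change of -0.87 ± 0.29 (limma, adjusted p = 0.0199). Without replicate 3 of 1 µM GSK436 none of these 3 passed the test, with changes of -0.63, -0.43 and -0.57 and adjusted p of 0.165, 0.369 and 0.297. NDUFS6 (0.85, adjusted p = 0.0685) and NDUFV1 (0.93, adjusted p = 0.0598) did not pass without that array either. The actin ratio was 32.6 on that array and 23.3 on the other treated array, against 4.59 to 12.0 with DMSO. With the actin ratio as a covariate NDUFV2, NDUFB4 and NDUFS6 remained called, and NDUFS4 did not (-0.43, adjusted p = 0.165). On the mean of all probe sets NDUFB4 (-0.33, limma, adjusted p = 0.388), NDUFS4 (-0.39, adjusted p = 0.608) and NDUFV1 (0.75, adjusted p = 0.183) were not called.

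None of the 3 measured subunits of complex II passed the test with 1 µM GSK436. SDHD, a membrane anchor of succinate dehydrogenase, had the lowest change of any member, -1.23, with signals of 522 and 363 against 1180.2, 1541 and 588 with DMSO. The third DMSO array lay close to the treated arrays. SDHC, the other anchor, changed by -0.25, and SDHA, the flavoprotein that oxidises succinate, by -0.12.

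In complex III 2 of 5 subunits rose. UQCRQ, a small subunit that sits against cytochrome b, had signals of 13253 and 13556 with 1 µM GSK436, against 6188, 6217 and 8234 with DMSO. Both treated arrays were above every DMSO array, and the change was 0.98 ± 0.14 (limma, adjusted p = 2.66e-06), the lowest adjusted p of the members. UQCRC1, a core protein on the matrix side, rose by 0.97 ± 0.22 (limma, adjusted p = 0.00085), and its call was lost without replicate 3 of 1 µM GSK436 (0.78, adjusted p = 0.0519). CYC1, the cytochrome c1 that hands electrons to cytochrome c, changed by -0.13 and was not called.

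Complex IV had the highest share, with 9 of 11 subunits called higher and 0 lower. COX6B1, which faces the intermembrane space, had signals of 9285 and 10378 with 1 µM GSK436, against 4376, 3999.9 and 6225 with DMSO. The treated arrays stood clear of all DMSO arrays, and the change was 1.04 ± 0.21 (limma, adjusted p = 0.000283). COX5B, a zinc-binding subunit on the matrix side, had signals of 4971 and 4876 against 2601, 2628 and 3128. COX5B rose by 0.83 ± 0.12 (limma, adjusted p = 3.96e-06), and it was singled out here after its values were seen. COX5A and COX6C, with changes of 0.30 and 0.28, were not called.

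**Figure D1:**
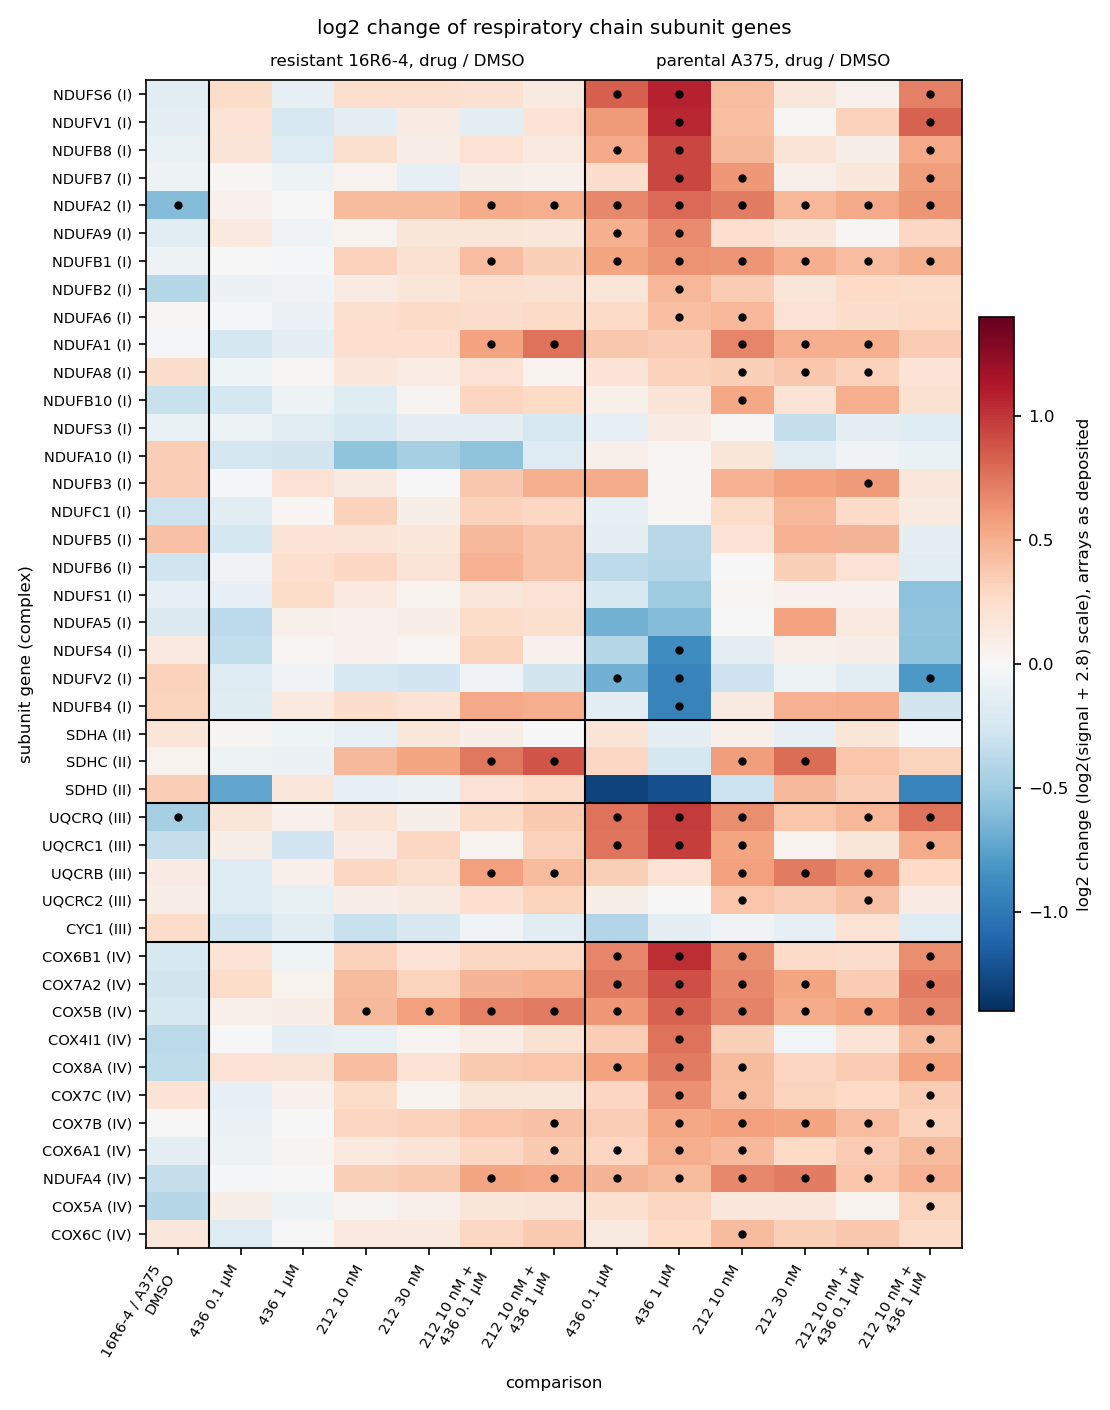
Heat map of log2 changes as deposited for the 42 measured members (rows, by complex) in 13 comparisons (columns), with dots where limma's adjusted p was under 0.05. In parental cells with 1 µM GSK436 20 members are called higher and 3 lower (0 higher and 9 lower after centring the arrays), while the GSK436 columns of resistant cells hold no dots.

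The lower dose also gave more higher than lower calls as deposited and the reverse after centring. With 0.1 µM GSK436 in parental cells 13 members were called higher and 1 lower, beside 15.4% and 11.6% of all genes, and after centring 0 were higher and 9 lower. The median member change was 0.28 and that over all genes 0.39. By complex, 5 of 23 rose and 1 fell in complex I, 0 of 3 in complex II, 2 of 5 rose in complex III and 6 of 11 in complex IV. UQCRQ had signals of 11523 and 11532 with 0.1 µM GSK436, against 6188, 6217 and 8234 with DMSO, and rose by 0.76 ± 0.14 (limma, adjusted p = 0.000126). NDUFS6 rose by 0.84 ± 0.25 (limma, adjusted p = 0.0122), COX7A2, a subunit that also exists in a muscle isoform, by 0.73 ± 0.18 (limma, adjusted p = 0.00251), and NDUFA2, an accessory subunit near the NADH-oxidising module, by 0.68 ± 0.15 (limma, adjusted p = 0.00143). UQCRC1 and COX6B1 rose by 0.75 and 0.68. With the actin ratio as a covariate NDUFS6, UQCRC1 and COX6B1 were not called (0.29, 0.44 and 0.25), and neither was NDUFV2, the 1 member that fell (-0.67 as deposited, -0.24 with the covariate). The arrays of this group had actin ratios of 37.2 and 37.5. SDHD again had the lowest member change, -1.30, with signals of 263 and 648, and was not called. Without replicate 1 or 2 of the DMSO arrays, 7 members were called.

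With 10 nM GSK212 in parental cells 21 of 42 members were called higher and 0 lower, beside 12.2% and 9.15% of all genes, and after centring 0 were called either way. The median member change was 0.43 and that over all genes 0.17, and 30 of 42 members lay above that all-gene median. This was the only drug treatment of parental cells whose member median stayed positive after centring, at 0.14 beside -0.12 over all genes. When only genes over the 75th percentile of signal on at least 2 arrays were tested, 25 members were called higher and 0 lower, beside 21.8% and 17.9% of those genes.

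The GSK212 calls reached all 4 complexes. With 10 nM, 7 of 23 rose in complex I, 1 of 3 in complex II, 4 of 5 in complex III and 9 of 11 in complex IV. COX5B had signals of 4661, 4809.6 and 4049, against 2601, 2628 and 3128 with DMSO, and rose by 0.69 ± 0.11 (limma, adjusted p = 7.88e-06). NDUFA4, long counted in complex I and now placed with complex IV, had signals of 4479, 5194 and 5012 against 3251, 2848 and 3097, a rise of 0.67 ± 0.12 (limma, adjusted p = 5.5e-05). In both genes every treated array lay above every DMSO array, as in 19.2% of all genes. NDUFA2, NDUFA1, a small accessory subunit of the membrane arm, COX7A2 and COX6B1 rose by 0.72, 0.68, 0.67 and 0.65. COX6B1 had signals of 8849, 8791 and 5401, against 4376, 3999.9 and 6225 with DMSO, so its groups overlapped. The COX6B1 call was lost without replicate 1 or 2 of either group (limma, adjusted p = 0.0545 to 0.0866). The mean actin ratio was 17.8 with 10 nM GSK212, against 7.76 with DMSO. Without replicate 2 of 10 nM GSK212, 12 members were called, and without replicate 1 of DMSO 13.

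With 30 nM GSK212 10 members were called higher and 0 lower in parental cells, beside 9.16% and 7.21% of all genes, and 0 higher and 1 lower after centring. They were 4 of complex I, 1 of complex II, 1 of complex III and 4 of complex IV, with a member median of 0.31 and an all-gene median of 0.23. SDHC had signals of 1519.7 and 1409 with 30 nM GSK212, against 989.6, 977 and 628 with DMSO. The groups did not overlap, and SDHC rose by 0.79 ± 0.21 (limma, adjusted p = 0.00611). Of all genes, 27.3% lay wholly above DMSO in this comparison. UQCRB, a ubiquinone-binding subunit of complex III, rose by 0.73 ± 0.14 (limma, adjusted p = 0.000243), NDUFA4 by 0.71 ± 0.13 (limma, adjusted p = 0.000166) and COX7B by 0.55 ± 0.13 (limma, adjusted p = 0.00282). On the mean of all probe sets SDHC (0.52, limma, adjusted p = 0.184) and COX7B (0.54, adjusted p = 0.0501) were not called. SDHC did not pass without replicate 3 of DMSO (0.57, adjusted p = 0.0618), and without replicate 3 of 30 nM GSK212 3 members were called. That pair of arrays had actin ratios of 4.76 and 37.1.

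Both combinations gave calls in parental cells. With 10 nM GSK212 and 0.1 µM GSK436 12 members were called higher and 0 lower, beside 10.8% and 8.4% of all genes, and 0 higher and 1 lower after centring. With 10 nM GSK212 and 1 µM GSK436 18 were called higher and 1 lower, beside 16.8% and 11.7%, and 0 higher and 10 lower after centring. The member medians were 0.30 and 0.29, and those over all genes 0.23 and 0.34. At the lower GSK436 dose UQCRB rose by 0.62 ± 0.13 (limma, adjusted p = 0.000332), though not on the mean of its probe sets (0.49, adjusted p = 0.125), and COX5B by 0.57 ± 0.11 (limma, adjusted p = 0.000177). At the higher dose 10 of 11 subunits of complex IV rose, COX5B by 0.67 ± 0.11 (limma, adjusted p = 1.26e-05). NDUFV2 fell by 0.80 on the log2 scale (limma, adjusted p = 0.00554), against the same DMSO arrays as with GSK436 alone. Without replicate 1 of this combination NDUFV2 was not called (-0.64, limma, adjusted p = 0.0541). The mean actin ratio was 22.25 with this combination and 7.76 with DMSO. NDUFV2 signals were 622, 910.3 and 829 with that combination, all below the DMSO signals of 1538, 1639 and 986. Of all genes, 15.2% lay wholly below DMSO in this comparison. Without replicate 2 of DMSO 9 members were called with this combination, and without replicate 1 of DMSO 10.

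All 6 parental comparisons use the same 3 DMSO arrays, so their calls are given side by side. NDUFA2, NDUFB1, NDUFA4 and COX5B were called higher in all 6, and UQCRQ, COX6A1, COX7A2 and COX7B in 5. With the mean of all its probe sets NDUFA2 was not called with 0.1 µM GSK436 (0.41, limma, adjusted p = 0.512), 10 nM GSK212 (0.50, adjusted p = 0.445) or the combination at 0.1 µM GSK436 (0.04, adjusted p = 0.961). COX5B was not called on that mean with 30 nM GSK212 (0.34, limma, adjusted p = 0.158). Over the 6 treatments 29 members were called higher at least once, 3 lower at least once and 10 never. In single comparisons 9.16% to 16.8% of all genes were called higher. The share of all genes called at least once, or in all 6, was not counted, so these counts have no background. No higher call remained after centring. The changes of COX5B ran from 0.52 to 0.83 and those of NDUFA4 from 0.39 to 0.71. UQCRQ and NDUFS6 had their highest change with 1 µM GSK436 (0.98 and 1.08), while with 30 nM GSK212 their changes were 0.38 and 0.16. SDHC gave the opposite order, with -0.25 for 1 µM GSK436 and 0.79 for 30 nM GSK212. Differences between drugs were not tested here.

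**Figure D2:**
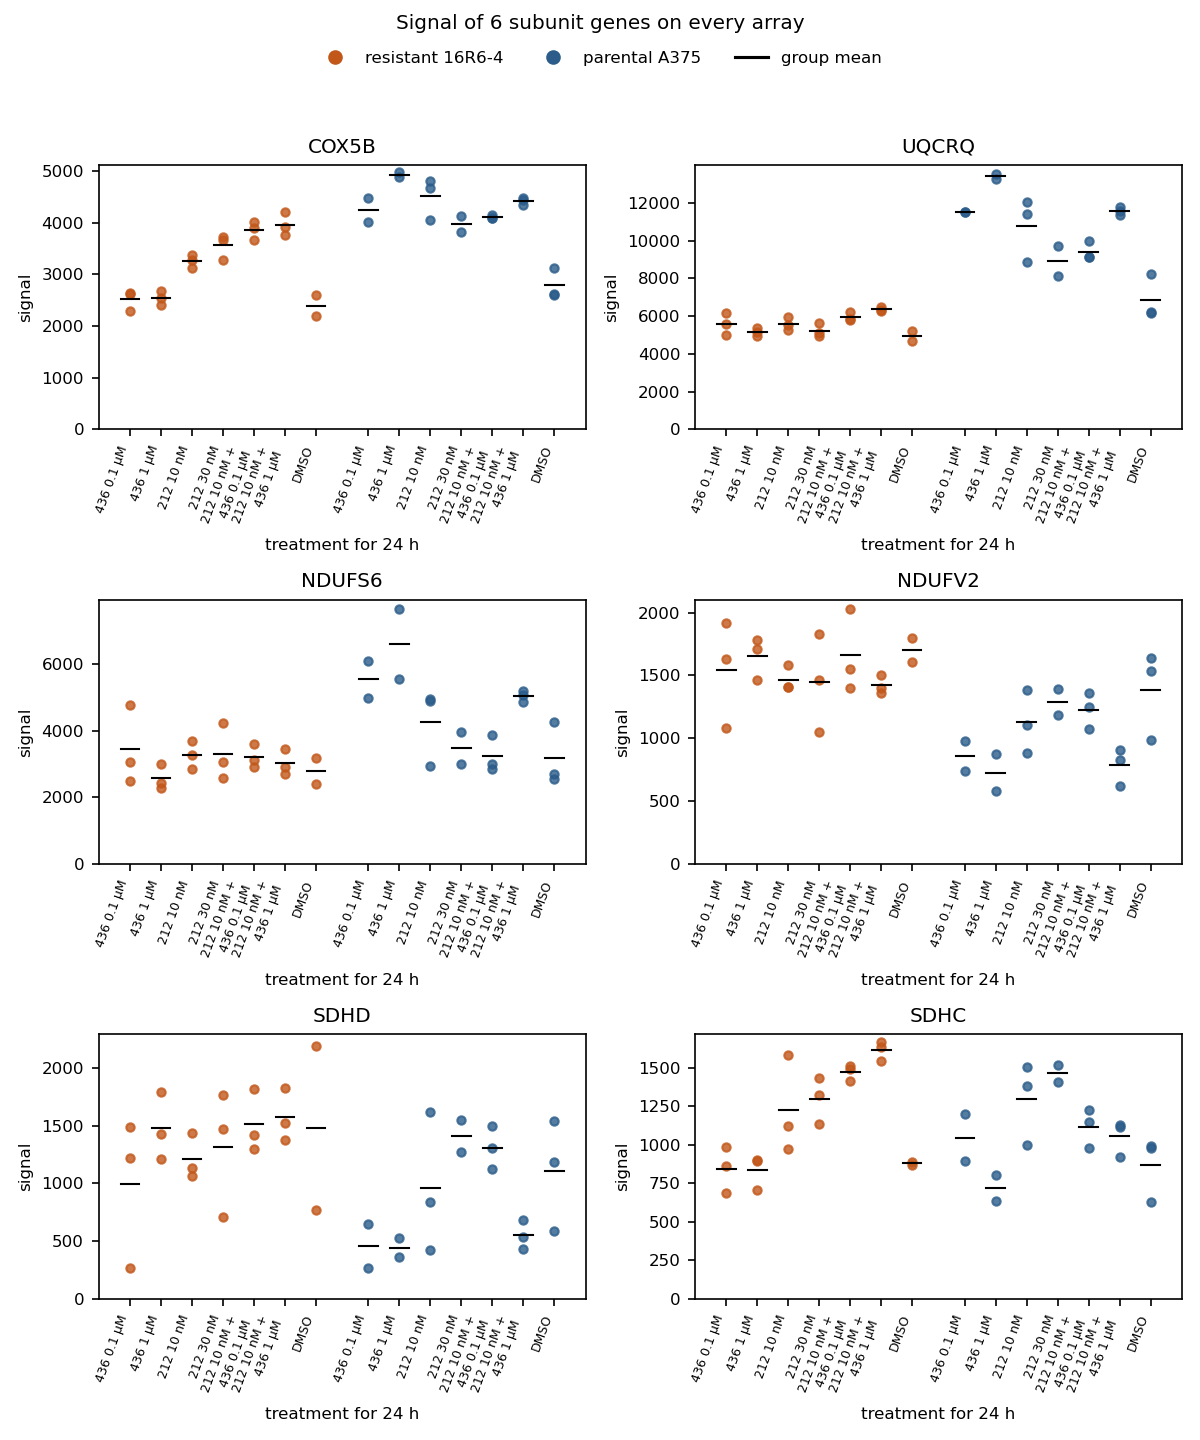
Deposited signal on each array for COX5B, UQCRQ, NDUFS6, NDUFV2, SDHD and SDHC, resistant cells left and parental cells right, with DMSO last in each line and bars at the group means. UQCRQ lies between 13253 and 13556 on the parental arrays with 1 µM GSK436, and between 6188 and 8234 on those with DMSO, while in resistant cells it lies between 4671 and 6466 on all 20 arrays.

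Resistant cells gave no member call with GSK436 alone. With 0.1 µM 0 members were called higher and 0 lower (0.00554% and 0% of all genes), and with 1 µM likewise 0 and 0 (0.0886% and 0.00554%). limma gave 0 members an unadjusted p under 0.05 at either dose, and 0 were called under any other setting run. The member medians were -0.06 and -0.01, beside 0.10 and 0.05 over all genes. COX5B had signals of 2609, 2295 and 2642 with 0.1 µM GSK436 and 2548, 2669.9 and 2397 with 1 µM, against 2589.6 and 2189.9 with DMSO. UQCRQ had 5390.0, 5153 and 4951 with 1 µM, against 5210.2 and 4671 with DMSO. In both genes the arrays overlapped across groups. On replicate 3 of 0.1 µM GSK436, whose actin ratio was 37.4, SDHD read 268, while the other two arrays read 1487 and 1220.3.

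COX5B was the 1 member called in resistant cells with GSK212 alone. Its signals were 3272, 3120.4 and 3382 with 10 nM and 3727, 3667 and 3285 with 30 nM, against 2589.6 and 2189.9 with DMSO. All 6 treated arrays lay above both DMSO arrays. Of all genes, 24.6% lay wholly above DMSO with 10 nM and 23.1% with 30 nM. COX5B rose by 0.45 ± 0.12 (limma, adjusted p = 0.0236) and 0.58 ± 0.12 (limma, adjusted p = 0.00162). With 10 nM 3.15% of all genes were called higher and 1.3% lower, and with 30 nM 4.76% and 2.46%. With 10 nM 20 members lay above the median change over all genes and 22 below. With 30 nM these counts were 11 and 31. An unadjusted p under 0.05 in limma was given to 9 members with 10 nM and 5 with 30 nM, all higher. The share of all genes at that threshold was not counted. The call with either dose was lost without replicate 2 of the DMSO arrays and after centring, where the change of COX5B with 10 nM was -0.0019. The call with 10 nM was also lost with the actin ratio as a covariate (0.36, limma, adjusted p = 0.0565) and on the mean of all probe sets (0.45, adjusted p = 0.111). The mean actin ratio was 22.7 with 10 nM and 20.7 with 30 nM GSK212, against 5.47 with DMSO.

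The combinations gave resistant cells a small set of calls. With 10 nM GSK212 and 0.1 µM GSK436 7 members were called higher and 0 lower, beside 5.71% and 2.71% of all genes. With 10 nM GSK212 and 1 µM GSK436 the counts were 8 and 0, beside 7.03% and 4.27%, and both counts of calls were 0 after centring. The member medians were 0.26 and 0.29, and those over all genes 0.22 and 0.21. At the higher dose the 8 were 2 subunits of complex I, 1 of complex II, 1 of complex III and 4 of complex IV.

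SDHC had signals of 1546, 1664 and 1633 in resistant cells with the combination at 1 µM GSK436, against 869 and 887 with DMSO. The 3 treated arrays were close together and far above both DMSO arrays. Of all genes, 29.3% lay wholly above DMSO in this comparison. SDHC rose by 0.88 ± 0.21 (limma, adjusted p = 0.00334), though the mean of all its probe sets gave 0.42 (adjusted p = 0.358). COX5B had signals of 3765, 3923 and 4199 and rose by 0.73 ± 0.12 (limma, adjusted p = 4.37e-05). NDUFA1 had signals of 6109, 5316 and 5117 against 3766 and 2778, a rise of 0.76 ± 0.18 (limma, adjusted p = 0.00319). NDUFA4, NDUFA2 and UQCRB rose by 0.53, 0.50 and 0.44, and UQCRB was at -0.0132 after centring. With the combination at 0.1 µM GSK436 SDHC, COX5B, UQCRB, NDUFA1, NDUFA4 and NDUFA2 rose by 0.74, 0.69, 0.58, 0.56, 0.56 and 0.52. On the mean of all probe sets SDHC (0.21, limma, adjusted p = 0.728), UQCRB (0.45, adjusted p = 0.332), NDUFA1 (0.56, adjusted p = 0.0554) and NDUFA2 (-0.07, adjusted p = 0.955) were not called with that combination. With 1 µM GSK436 in the combination neither were UQCRB (0.33, limma, adjusted p = 0.485) and NDUFA2 (0.10, adjusted p = 0.934).

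These resistant calls lean on the pair of DMSO arrays. Without replicate 1 of DMSO 3 members were called with the lower and 4 with the higher combination, and without replicate 2 the counts were 2 and 3. NDUFA10, an accessory subunit of complex I, had the lowest change with the lower combination, -0.56, and was not called. The mean actin ratio was 20.9 with the lower combination and 8.16 with the higher one, against 5.47 with DMSO. Over the 6 treatments 9 members were called at least once in resistant cells and 33 never. In single comparisons 0.00554% to 7.03% of all genes were called higher there, and the share called at least once was not counted. All 9 members were also called higher at least once in parental cells, where 29 of the 42 members were. This overlap was not counted over all genes, so it has no background.

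Without drug, the clone and the parental line differed in 2 members. Of 42 members 0 were called higher and 2 lower in resistant than in parental cells, beside 2.25% and 3.26% of all genes, and after centring 0 were called. The member median was -0.09 and that over all genes -0.10. NDUFA2 had signals of 1796 and 1457 in resistant cells, against 2233, 2206 and 3071 in parental cells, a change of -0.61 ± 0.15 (limma, adjusted p = 0.0109). UQCRQ had signals of 5210.2 and 4671 against 6188, 6217 and 8234, a change of -0.47 ± 0.14 (limma, adjusted p = 0.04). In both genes every resistant array lay below every parental array, as in 19.9% of all genes. Neither was called without replicate 3 of parental DMSO, where the changes were -0.46 (adjusted p = 0.119) and -0.33 (adjusted p = 0.291), or without replicate 2 of resistant DMSO. NDUFA2 was at -0.009 when all its probe sets were averaged.

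Both genes lie on chromosome 5, and their 20 nearest measured neighbours had median differences of -0.27 (NDUFA2) and -0.25 (UQCRQ), while the median over chromosome 5 was -0.15. Members stood both near their neighbours and away from them. NDUFB5, the member with the highest difference, was at 0.41 with a neighbour median of 0.42. COX5A was at -0.40, its neighbours at -0.66 and the median over chromosome 15 at -0.48. NDUFA10 was at 0.35, SDHD at 0.35 and CYC1 at 0.26, while their neighbours were at -0.31, -0.15 and -0.24. None of these 5 members was called, and the part of chromosome number in these values was not tested.

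The response to 1 µM GSK436 differed between the lines in 14 members. This test subtracts the parental change from the resistant change. Of the 42 members, 16 lay above the median difference over all genes and 26 below. 0 members were called higher and 14 (33.3%) lower, beside 6.7% and 6.35% of all genes, and after centring 0 were called either way. The 14 were 7 subunits of complex I, 2 of complex III and 5 of complex IV. NDUFV1 changed by -0.23 in resistant and 1.06 in parental cells, a difference of -1.29 ± 0.37 (limma, adjusted p = 0.0187). UQCRC1 changed by -0.26 and 0.97, a difference of -1.23 ± 0.31 (limma, adjusted p = 0.00628). UQCRQ changed by 0.07 and 0.98, a difference of -0.91 ± 0.20 (limma, adjusted p = 0.00202).

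The count of line differences moved with single arrays. It was 2 without replicate 1 of resistant DMSO and 9 without replicate 3 of resistant 1 µM GSK436. It was 4 without replicate 3 of parental 1 µM GSK436, and 8 and 7 without replicates 1 and 2 of parental DMSO. The mean actin ratio was 10.9 with 1 µM GSK436 and 5.47 with DMSO in resistant cells, and 27.9 and 7.76 in parental cells. Members that fell in parental cells had positive differences that did not pass the test, NDUFB4 1.08, NDUFS4 0.90 and NDUFV2 0.88, and that of SDHD was 1.39.

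At the other doses 0 members were called as differing between lines. For 0.1 µM GSK436 the member median difference was -0.32, and 13 members lay above the median difference over all genes and 29 below. In limma 11 members had an unadjusted p under 0.05, all lower in resistant cells. At the stricter adjusted p, 2.52% of all genes were called higher and 2.52% lower. The share of all genes at an unadjusted p under 0.05 was not counted for any treatment. Member counts at that threshold therefore have no background beside them. With array weights 2 were called higher and 10 lower, and after quantile normalization 0 and 6. For 10 nM GSK212 the median was -0.24 with 4 members at an unadjusted p under 0.05 (1.25% and 1.07% of all genes called), and array weights gave 6 calls. For 30 nM GSK212 it was -0.17 with 1 such member (0.476% and 0.426%), and 0 calls with array weights. At either dose of GSK212 8 members lay above the median difference over all genes and 34 below.

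For the combinations the median line differences over the members were near 0, while single members went both ways. With 0.1 µM GSK436 in the combination the median member difference was -0.01, 0 members had an unadjusted p under 0.05, and 0.62% of all genes were called higher and 0.371% lower. With 1 µM GSK436 it was 0.01, with 3 members higher and 1 lower at an unadjusted p under 0.05. At the stricter adjusted p, 0.764% and 0.426% of all genes were called. Array weights gave 0 and 5 calls. With 0.1 µM GSK436 16 members lay above the median difference over all genes and 26 below. With 1 µM these counts were 24 and 18. SDHD had the highest difference with 1 µM GSK436 in the combination, 1.18.

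**Figure D3:**
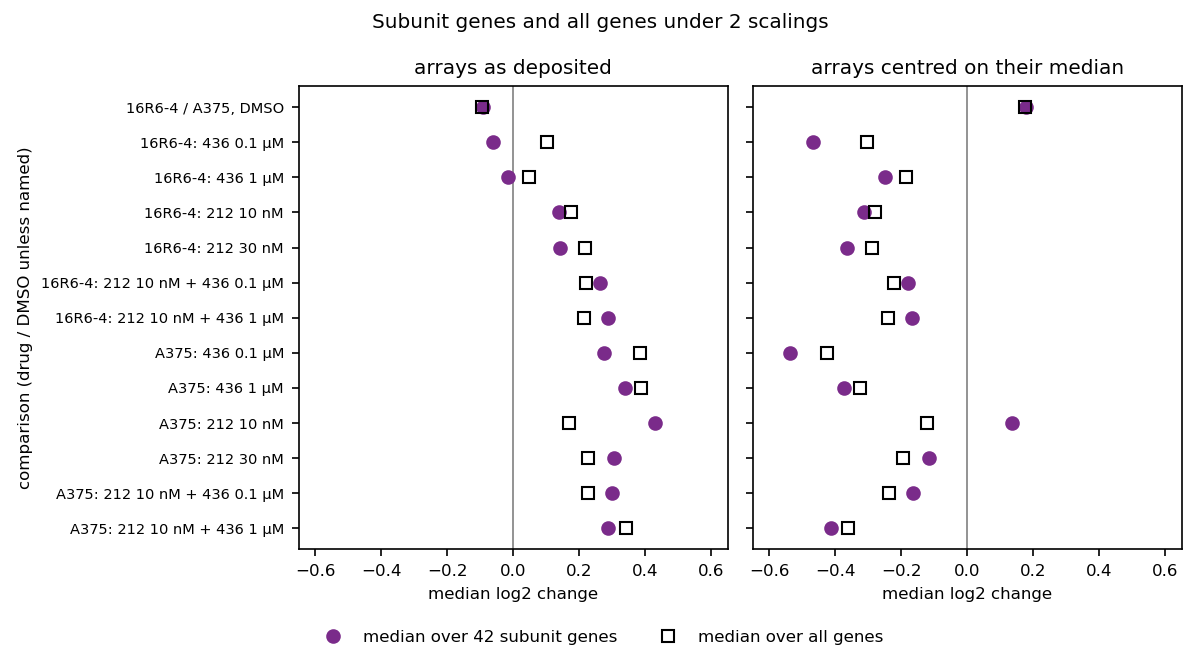
Median log2 change over the 42 members (circles) and over all genes (squares) in each comparison, as deposited and after centring each array on its median. Member medians of 0.28 to 0.43 in parental cells as deposited become -0.54 to 0.14 after centring, where the member median stays positive with 10 nM GSK212 alone. The medians over all genes turn negative as well, so these values set no direction for the family as a whole.

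Genes around the subunits were counted by list, and differences between lists were not tested. The lists were counted in parental cells with 1 µM GSK436, where 16.2% of all genes were called higher and 13% lower. Of 14 other subunits of complexes I to IV and cytochrome c, 8 rose and 2 fell. NDUFA3, NDUFA13 and NDUFA11, accessory subunits of complex I, rose by 1.53, 1.44 and 1.21, and CYCS, cytochrome c, fell by 1.38 on the log2 scale. Of 15 subunits of ATP synthase 5 rose and 1 fell, with ATP5F1E at 1.11, ATP5ME at 1.08, ATP5F1D at 1.03 and ATP5MC3 at -0.93. Of 7 genes of mitochondrial DNA 3 were higher and 1 lower, MT-ND6 at 1.01 and MT-ND2 at -0.87, and overlapping transcripts of that genome cannot be told apart by such probe sets.

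Assembly and expression factors held more lower than higher calls. Of 19 assembly factors of complex I 0 rose and 6 fell, among them TMEM70 (-2.10), TMEM126B (-1.73), COA1 (-1.73) and NDUFAF4 (-1.60), whose products help build the complex. NDUFAF4 had signals of 315.6 and 269.7 with 1 µM GSK436, against 1071, 1034.7 and 637 with DMSO, with no overlap. Of 12 factors that copy, transcribe or process mitochondrial DNA and its RNA 1 rose and 6 fell. LONP1, a matrix protease, rose by 1.10, while TFB2M, FASTKD2, SSBP1 and TFAM were at -1.43, -1.31, -1.24 and -1.21. Of 23 assembly factors of complex IV 5 rose and 8 fell, with COX19 at 2.30, SURF1 at 1.51, COA6 at -1.44 and COA7 at -1.38. Of 10 assembly factors of complexes II and III 0 rose and 2 fell, of 11 enzymes of the citric acid cycle 4 rose and 3 fell, and of 5 tissue-specific subunit isoforms 1, COX6B2, the testis form of COX6B, was called higher. Its signals were 152.0 and 199.6 with 1 µM GSK436, against 21.7, 29.3 and 3.27 with DMSO, all under the low-signal limit, so no fold is given. In resistant cells with 1 µM GSK436 none of these lists held a call. There 0.0886% of all genes were called higher and 0.00554% lower, so an empty list does not set these genes apart.

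**Figure D4:**
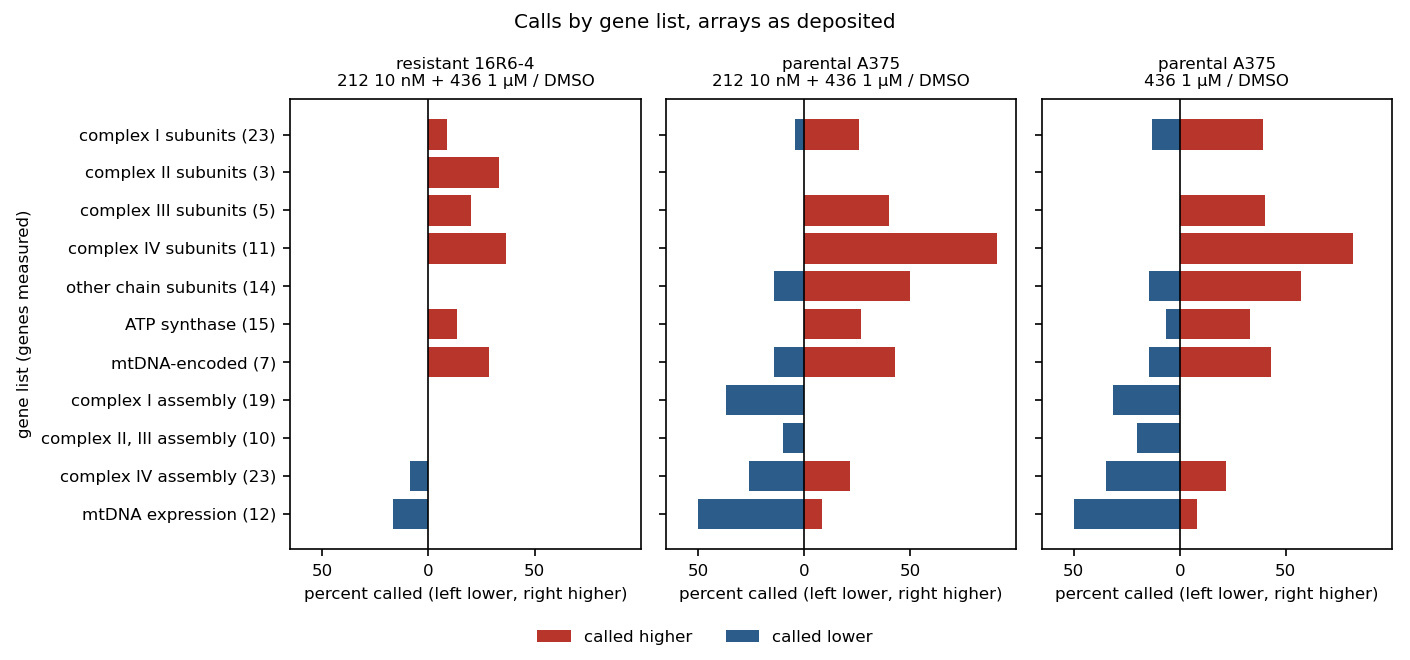
Percent of each gene list called higher (right) and lower (left), as deposited, in resistant cells with 10 nM GSK212 and 1 µM GSK436, in parental cells with the same combination, and in parental cells with 1 µM GSK436. With 1 µM GSK436 alone in parental cells 47.6% of the 42 members are called higher (0 after centring), while of 19 complex I assembly factors 0 are higher and 6 lower.

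Among regulators of mitochondrial genes, TFAM, the packaging and transcription factor of mitochondrial DNA, fell in all 6 parental treatments. Its signals with 1 µM GSK436 were 585.1 and 444.5, against 1263, 1239.9 and 1060.5 with DMSO, and all arrays of the treated group were lower. The change was -1.21 ± 0.21 (limma, adjusted p = 3.68e-05), and the 6 changes ran from -1.33 to -0.70. In resistant cells TFAM was called with 1 treatment, the combination at 1 µM GSK436 (-0.71 ± 0.21, limma, adjusted p = 0.0194). MYC, a growth factor-responsive activator of mitochondrial biogenesis genes, fell in all 6 parental treatments, with changes of -3.49 to -2.66, and passed the test in 0 resistant ones (-2.04 to 0.10).

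PPRC1, a PGC-1-related coactivator, fell in 5 of 6 parental treatments and with both combinations in resistant cells (-0.88 and -0.78). MITF was higher in the clone than in the parental line with DMSO, by 1.73 ± 0.22 (limma, adjusted p = 1.07e-06), and rose in parental cells with 10 nM GSK212 (0.63), 30 nM GSK212 (0.94) and the combination at 0.1 µM GSK436 (0.59). PPARGC1A had low signals, 1.65 and 1.74 in resistant cells and 22.9, 18.8 and 34.2 in parental cells with DMSO, all under the limit of 34.88, and no fold is given for it. NRF1 fell in parental cells with 10 nM GSK212 (-0.53) and the combination at 0.1 µM GSK436 (-0.82), and GABPA with 1 µM GSK436 (-1.36). ESRRA, an orphan nuclear receptor that works with PGC-1, was called in 0 of the drug comparisons.

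Across the 14 group means the members differed in how closely they followed the median member. Pearson's r, given as a description over groups that share arrays, scaling and RNA quality, was 0.966 for NDUFB1, 0.964 for COX5B, 0.959 for COX7B, 0.948 for COX6A1 and 0.944 for NDUFA4. It was lowest for NDUFV2 (-0.653) and SDHA (-0.377). The non-members most like the median member were LGALS3 (0.976), DHRS1 (0.972), GSTT1 (0.964), GABARAP (0.964) and ALKBH7 (0.963).

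Probe sets of 1 gene did not always give the same change. With 1 µM GSK436 in parental cells another probe set of UQCRC2, a core protein of complex III, gave -1.44 where the one used gave 0.01. For NDUFB10 another gave 1.18 and the one used 0.18. For NDUFS1, the largest iron-sulfur subunit of complex I, these were 0.69 and -0.50, and for NDUFB8 0.28 and 0.94. For COX4I1, the common isoform of subunit 4 of complex IV, another bright probe set gave 0.93 beside 0.76, and for COX5B other bright ones gave 0.62 and 0.61 beside 0.83. These genes were chosen after their values were seen.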

How the data were processed

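The deposited values were linear signal intensities of 54675 probe sets on 38 arrays, made by the authors with MAS5, per the submitters' processing notes, whose version is not given in the sources used here. RNA was extracted with Trizol and labelled from 500 ng, per the labels' protocols. Of the 41097 probe sets naming 1 gene, those above 34.88 (the pooled median) on 2 or more arrays entered, each gene by its brightest on average, and log2 of signal plus 2.8 (the 10th percentile) entered the fit. limma 3.58.1 in R 4.3.3 fitted 14 group means (lmFit, eBayes with trend, 24 residual degrees of freedom) for 19 comparisons, with Benjamini-Hochberg adjustment over 18063 genes in each. Figures were drawn with matplotlib 3.10.9 under Python 3.11.15, from values handled with pandas 2.3.3, numpy 2.4.6 and, in R, jsonlite 2.0.0. The fit was tested on simulated data.

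Members, gene lists and tests were chosen with earlier results of these data known. Named members were up to 6 called in each direction of a comparison, by size of change, and the highest and lowest of each complex. Other lists gave up to 4 called genes, beside 8 regulators. The 5 most similar non-members were also named. Replicate numbers did not pair the samples: same-numbered arrays had correlations of deviations from -0.27 to 0.16 over 29 pairs, 2 of them over 0.1. Other settings are given below.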

Additional observations from a re-analysis of the deposited data

Results flagged for a closer look

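At 1 µM GSK436 the change in resistant cells differed from that in parental cells, by limma's test of the difference itself, in 14 members, each with the lower change in resistant cells. The differences in complex I were -1.29 for NDUFV1, -1.20 for NDUFS6, -1.12 for NDUFB8, -1.01 for NDUFB7, -0.78 for NDUFA2, -0.71 for NDUFA9 and -0.65 for NDUFB1. In complex III they were -1.23 for UQCRC1 and -0.91 for UQCRQ. In complex IV they were -1.10 for COX6B1, -0.89 for COX4I1, -0.86 for COX7A2, -0.74 for COX5B and -0.58 for COX7C. The adjusted p ran from 0.00202 for UQCRQ to 0.0399 for NDUFA9. After centring the arrays 0 of the 42 members passed this test, and the median member difference was 0.07, against -0.41 as deposited. As deposited 16 members lay above the median difference over all genes and 26 below. The mean actin ratio was 10.9 with the drug and 5.47 with DMSO in resistant cells, and 27.9 and 7.76 in parental cells. With the actin ratio as a covariate NDUFV1, UQCRC1, NDUFS6, NDUFB8, COX6B1 and NDUFB7 remained called in this test. The cause of these differences was not tested.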

How the results depend on the processing

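Every parental and resistant count below is the number of members called in either direction. Shares of all genes under these settings are not given, so the counts have no background beside them. Centring each array on its median moved the counts most: to 0 for the clone against the parental line, 9 for 0.1 µM and 9 for 1 µM GSK436, 0 for 10 nM and 1 for 30 nM GSK212, and 1 and 10 for the lower and higher combination in parental cells, all of them lower. It gave 0 for 10 nM GSK212, 30 nM GSK212 and both combinations in resistant cells, and 0 for the line difference at 1 µM GSK436. It also reversed 9 named changes. These were UQCRQ (-0.0543), UQCRC1 (-0.0576), COX7A2 (-0.0827), COX6B1 (-0.129) and NDUFA2 (-0.134) with 0.1 µM GSK436 in parental cells, COX5B (-0.0311) and COX6B1 (-0.0455) with the higher combination there, and COX5B (-0.0019) with 10 nM GSK212 and UQCRB (-0.0132) with the higher combination in resistant cells. The mean of all probe sets reversed NDUFA2 (-0.0728) with the lower combination in resistant cells.

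Quantile normalization gave 4 for the clone, 16 for parental 30 nM GSK212, 20 for the parental lower combination, 3 and 5 for resistant 10 and 30 nM GSK212, and 6 for the line difference at 0.1 µM. The mean of all probe sets gave 1 for the clone, 6 for parental 30 nM, 0 for resistant 10 nM, 2 and 5 for the resistant combinations, 9 for the line difference at 1 µM and 1 for that of the higher combination. The actin ratio as a covariate gave 9 for parental 0.1 µM, 18 for parental 30 nM, 0 for resistant 10 nM, 11 for the resistant lower combination, and 4 and 1 for the line differences at 0.1 µM GSK436 and 10 nM GSK212. Array weights, chosen after seeing the data, gave 4 for the clone, 22 for the parental lower combination, 2 and 4 for resistant 10 and 30 nM, and 12, 25, 6 and 5 for the line differences at 0.1 µM, 1 µM, 10 nM and the higher combination. A fit without trend gave 1 for the clone and 5 for the resistant higher combination, no filter gave 1 for the clone, and a filter at the 75th percentile gave 3 for resistant 30 nM and 3 for the line difference at 0.1 µM. With the replicate number as a block the clone had 1 call, and no other count moved by over 1.5 times. Either pseudocount left every count within 1.5 times. The cause of these moves was not tested.

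Leaving out 1 array gave 0 to 2 calls for the clone, 7 to 19 and 14 to 26 for parental 0.1 and 1 µM GSK436, 12 to 23 and 3 to 9 for 10 and 30 nM GSK212, and 8 to 12 and 9 to 22 for the combinations. In resistant cells it gave 0 for GSK436 alone, 0 to 1 for 10 and for 30 nM GSK212, and 2 to 6 and 3 to 7 for the combinations. Line differences ranged from 0 to 3 at 0.1 µM, from 2 to 19 at 1 µM, and stayed at 0 for the other treatments. A lone array left in a group was assumed to vary like the others. The number of arrays limits the precision.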
